A study of Mus musculus with 4 samples.

Results

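The 8 genes described here are the D-type cyclins Ccnd1, Ccnd2 and Ccnd3, the Cdk inhibitors Cdkn1a, Cdkn1b, Cdkn1c and Cdkn2a, and Myc, out of 22350 protein-coding genes on chromosomes 1 to 19 and X. They were listed by name, and the Pax7 peaks assigned to them were those with a summit from 100 kb before the start to 100 kb after the end of the gene in the GENCODE annotation of NCBIM37 (mm9). This rule took 20 of the 20579 peaks of the series. It goes by position alone and does not show which gene a peak acts on. Pax7 ChIP-seq was performed in iPax7 cells, mouse ES cells in which doxycycline (Dox) drives a single integrated Pax7 cDNA from a tet-responsive element, and 2 ChIP and 2 input libraries were made. Both kinds of library came from the same treatment. Embryoid bodies received 1 µg/ml Dox from day 3, PDGFRα+FLK1- cells were sorted on day 5, and the myogenic progenitors were collected on day 9, after 6 days of Dox. The authors called peaks on the merged libraries, so a peak has neither a value per replicate nor an error, and no state without Dox was measured. The identity of the cells could not be checked against marker genes, since a peak list holds no expression.

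D-type cyclins activate Cdk4 and Cdk6, which phosphorylate the retinoblastoma protein and release E2F factors, so that a cell passes from G1 into S phase. Cip/Kip inhibitors (Cdkn1a, Cdkn1b and Cdkn1c, which encode p21, p27 and p57) and the Ink4 inhibitor p16 encoded by Cdkn2a act on cyclin-dependent kinases. Myc promotes growth and proliferation. In myoblasts, terminal differentiation requires permanent exit from the cell cycle, and Ccnd3 and Cdkn1a are known to be induced as it begins. Pax7 is a paired-box and homeodomain factor of muscle progenitors, which cease to express it when they differentiate.

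Pax7 peaks stood near 6 of the 8 genes, and Ccnd2 and Cdkn1c had none. Across all protein-coding genes, 75.2% had at least 1 peak in a window drawn in the same way, so 6 of 8 was close to the share of genes in general. Ccnd3 and Cdkn1a had 5 peaks each, Cdkn1b had 4, and Ccnd1, Cdkn2a and Myc had 2 each. The median over all protein-coding genes was 2 peaks. Of these genes, 80.6% had fewer peaks than Ccnd3 or Cdkn1a, 70.2% had fewer than Cdkn1b, and 41.1% had fewer than Ccnd1, Cdkn2a or Myc. These positions depended on the reach and on the strength required. Within 50 kb, Cdkn1b had 1 peak, more than 37.9% of genes, Cdkn1a had 3, more than 76.6%, and Myc had 0. Counting only peaks of at least 5-fold, 63.5% of genes had fewer than Myc, and Ccnd1 had 0. A window was 203 kb to 295 kb long, the longest being that of Ccnd3, and a longer gene has more room for peaks. Per 100 kb, Cdkn1a had 2.38 peaks, Cdkn1b 1.95 and Ccnd3 1.70, whereas the chromosomes of these genes averaged between 0.719 and 0.853. A chromosome average also covers sequence far from genes, and the rate over the windows of all protein-coding genes is not given here. Ccnd1, Cdkn2a and Myc had 0.953, 0.908 and 0.976 peaks per 100 kb. In the window of Cdkn2a, 51182 bases are unsequenced in this build, and the other windows have none. The rate of Cdkn2a counts these bases in its length, while the chromosome averages leave such bases out, so its rate is understated beside theirs.

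**Figure D1:**
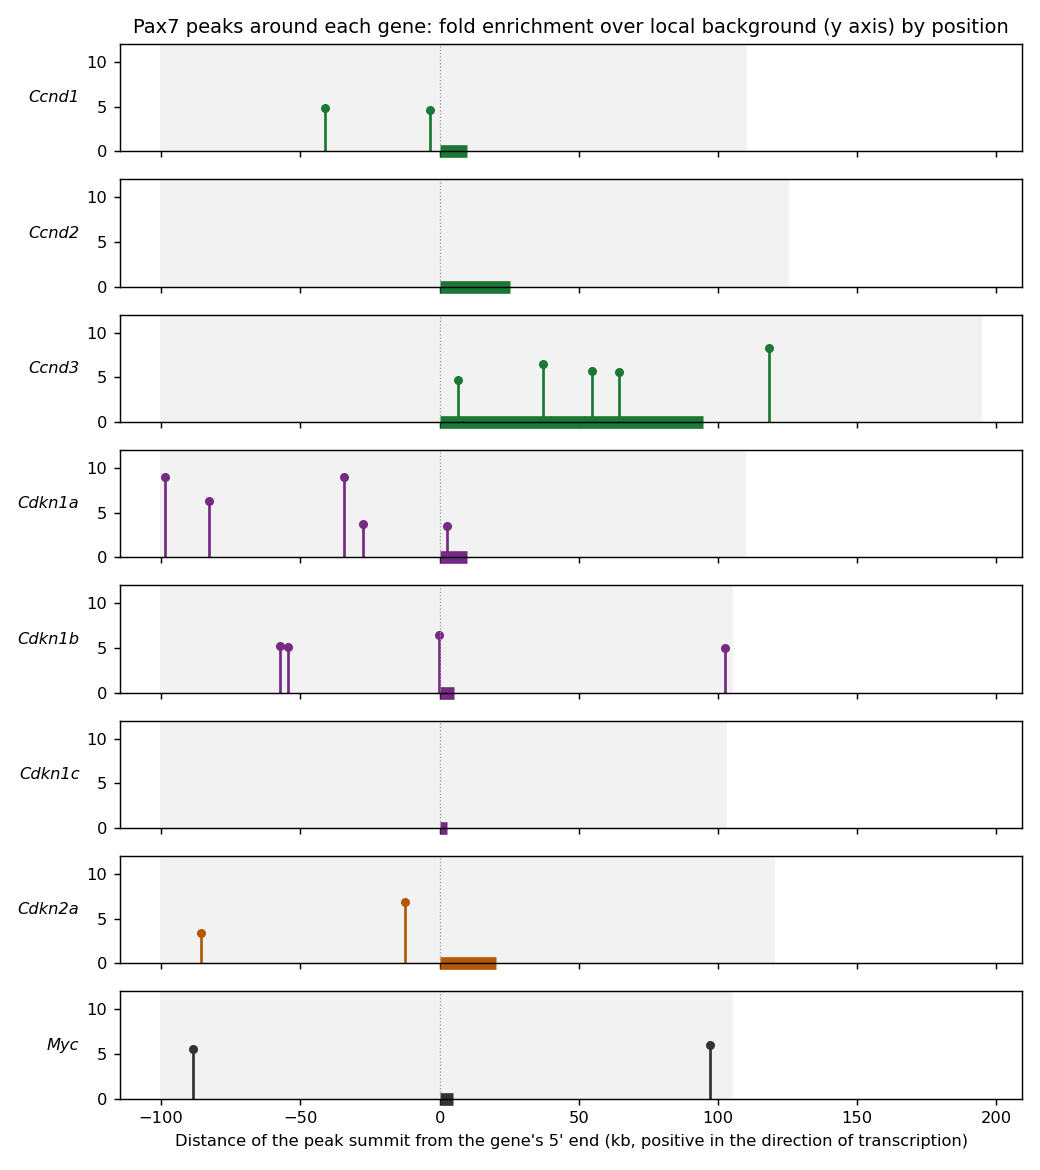
Position and fold enrichment of the 20 Pax7 peaks. Each row is 1 gene, the thick bar is the gene, the grey area is the window searched, the x axis is the distance of the summit from the 5′ end of the gene in kb, and the y axis is the fold enrichment over local background. The 4 peaks closest to the 5′ end of their gene belong to Cdkn1b, Cdkn1a, Ccnd1 and Ccnd3, while the rows of Ccnd2 and Cdkn1c are empty.

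**Figure D2:**
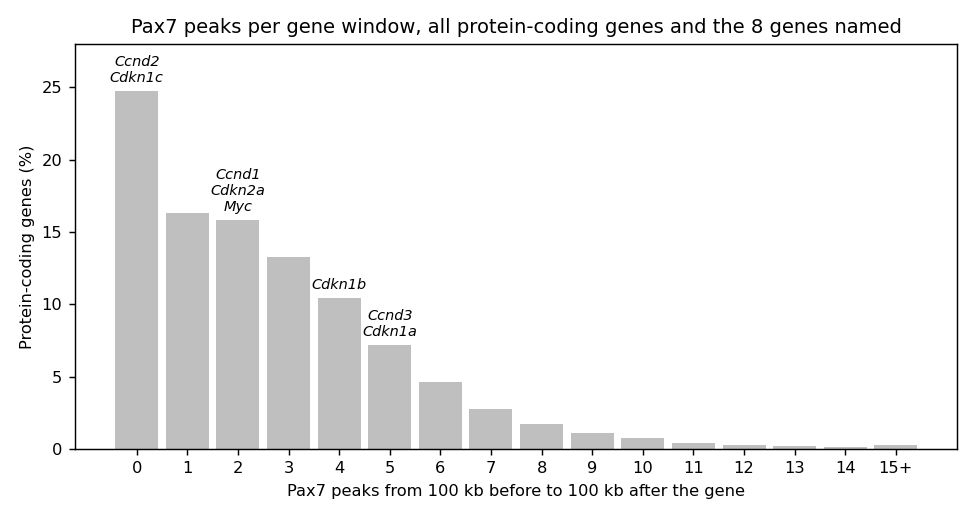
Share of protein-coding genes (y axis, %) by the number of Pax7 peaks in their window (x axis), with the names of the 8 genes above the bar they fall in. Ccnd3 and Cdkn1a, with 5 peaks, lie in the upper part of the distribution, and Ccnd2 and Cdkn1c share 0 peaks with 24.8% of genes.

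The sequences that these peaks share or lack are shown for the strongest peak of each gene and for every peak with the paired-box core, GTCACG. They are read 5′ to 3′ on the plus strand of NCBIM37 over the 101 bp centred on the summit. Capitals mark the core on either strand (CGTGAC is its reverse complement) or, at Ccnd3, an E-box, CAGCTG. The sites at Ccnd3 and Cdkn2a are cut to 29 bp because the larger window overlaps an untranslated region. The Ccnd3 summit itself lies in such a region, of Med20, and the Cdkn2a summit lies in a coding exon of Cdkn2b.
Cdkn1a, 98.7 kb upstream, chr17:29129204-29129304: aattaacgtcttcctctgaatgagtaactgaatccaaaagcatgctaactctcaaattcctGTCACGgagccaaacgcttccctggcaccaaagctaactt
Cdkn1a, 82.7 kb upstream, chr17:29145180-29145280: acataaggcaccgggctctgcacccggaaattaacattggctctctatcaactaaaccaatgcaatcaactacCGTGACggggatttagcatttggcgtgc
Cdkn1a, within the gene, chr17:29230482-29230582: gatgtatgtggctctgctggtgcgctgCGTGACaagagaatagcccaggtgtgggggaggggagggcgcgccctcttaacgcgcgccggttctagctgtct
Cdkn1b, 57.4 kb upstream, chr6:134812921-134813021: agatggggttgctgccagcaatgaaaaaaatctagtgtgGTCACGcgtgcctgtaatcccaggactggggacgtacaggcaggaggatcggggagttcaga
Cdkn1b, at the promoter, chr6:134870308-134870408: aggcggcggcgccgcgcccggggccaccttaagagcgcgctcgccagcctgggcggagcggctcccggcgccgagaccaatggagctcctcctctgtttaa
Cdkn2a, 12.4 kb upstream, chr4:88952992-88953020: tcgcaatGTCACGgtggccctgctcttca
Ccnd1, 3.57 kb upstream, chr7:152129297-152129397: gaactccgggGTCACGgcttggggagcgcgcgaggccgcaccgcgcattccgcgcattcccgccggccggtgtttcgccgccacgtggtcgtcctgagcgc
Ccnd1, 41.2 kb upstream, chr7:152166921-152167021: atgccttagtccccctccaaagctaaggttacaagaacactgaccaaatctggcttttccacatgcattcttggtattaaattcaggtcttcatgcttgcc
Ccnd3, 118 kb downstream of the 5′ end, chr17:47760182-47760210: ctgagcccatcaCAGCTGgtttttacttc
Myc, 97.2 kb downstream, chr15:61914077-61914177: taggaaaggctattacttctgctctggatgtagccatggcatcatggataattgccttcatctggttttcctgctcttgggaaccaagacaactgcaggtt

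Cdkn1a encodes p21, the Cip/Kip inhibitor that myoblasts induce on leaving the cell cycle, and lies on the plus strand of chromosome 17 from 29227924 to 29237667. Its window had the largest number of peaks, together with that of Ccnd3, and also the highest fold enrichment among the windows of the 8 genes. The strongest peak, chr17:29129132-29129413, was 8.96-fold over the local background with a −log10 q of 34.8, and 89.5% of all Pax7 peaks were lower. Its summit was 98.7 kb upstream of the Cdkn1a 5′ end in an intron of Stk38, 15.6 kb from the Stk38 start. A second peak of 8.96-fold, chr17:29193249-29193599, was intergenic, 34.5 kb upstream, with a −log10 q of 30.2, and its nearest coding start was that of Srsf3 at 23.8 kb.

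The other peaks of Cdkn1a were weaker, and 1 of them was at a promoter of the gene. The peak chr17:29230464-29230637 was 3.54-fold with a −log10 q of 4.12, and only 7.32% of all peaks were lower. Its summit was 2.61 kb inside the gene as annotated, but 185 bp from the start of another Cdkn1a transcript at 29230717. The peak chr17:29145126-29145370 was 6.28-fold, 82.7 kb upstream, and its summit was 340 bp from the start of Stk38, a serine/threonine kinase gene. The peak chr17:29200286-29200465 was 3.70-fold, 27.5 kb upstream in an intron of the lincRNA Gm16197. Of the 5 summits, 3 had the paired-box core within 50 bp, at 13.5, 25.5 and 20.5 bp in the order of the sequences above. The 34.5 kb upstream peak held its variant GTCATG on the minus strand, 4.5 bp from the summit.

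Cdkn1b encodes p27, which is associated with quiescence, and lies on the plus strand of chromosome 6 from 134870419 to 134875531. It was the gene with the closest Pax7 peak. The peak chr6:134870227-134870516 covered its 5′ end, with the summit 61 bp upstream, a fold enrichment of 6.44 and a −log10 q of 20.0. Only 2.57% of protein-coding genes had a summit closer to their 5′ end, and 71.3% of all Pax7 peaks had a lower fold enrichment. The 201 bp around this summit were 68.2% G or C with 24 CpG dinucleotides, against medians of 45.8% and 3 over all peaks. None of the 7 motifs searched was present within 50 bp of it.

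The 3 remaining peaks of Cdkn1b were distal and close to the median fold enrichment of all Pax7 peaks, 5.22. Peaks chr6:134812869-134813113 and chr6:134815705-134815878 lay in intergenic sequence 57.4 kb and 54.6 kb upstream, with 5.25-fold and 5.06-fold enrichment. The former held the paired-box core 8.5 bp from its summit. The latter held none of the Pax motifs, but an E-box (CACCTG) at 4.5 bp, an AP-1 site at 13.0 bp and a TEAD site at 22.5 bp. Both were nearer to other coding starts, of Crebl2 and Gpr19, at 32.8 kb and 32.1 kb. The last peak, chr6:134972804-134972977, was 4.96-fold and 102 kb downstream in an intron of Ddx47, an RNA helicase gene. A word of 20 bases in the 101 bp around its summit occurs 45042 times in the genome, whereas the highest count for any of the other 19 peaks was 47. Words that occur 100 times or more were found at 3.23% of all Pax7 summits. Only exact words were counted, so copies that differ by a base are missed and a low count does not show that a sequence is unique. The authors kept only uniquely mapped reads, and the part of repeated sequence in this peak was not tested.

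Cdkn1c, the Cip/Kip gene that encodes p57, is imprinted and lies on the minus strand of chromosome 7 from 150644255 to 150646955. No Pax7 summit was found within 100 kb of it, as for 24.8% of protein-coding genes. The first peak outside, chr7:150524560-150524881, was 120 kb downstream in an intron of Kcnq1. It was 6.79-fold with a −log10 q of 37.0.

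Cdkn2a encodes p16 and, from a separate first exon, Arf, and lies on the minus strand of chromosome 4 from 88920377 to 88940557. It had 2 peaks, both upstream. The peak chr4:88952877-88953128 was 6.84-fold with a −log10 q of 18.4, and 76.1% of all peaks were lower. Its summit was 12.4 kb upstream of the Cdkn2a 5′ end and lay in a coding exon of Cdkn2b, the neighbouring Ink4 gene, 3.94 kb from the Cdkn2b start. The paired-box core was 4.5 bp from the summit, inside that exon. The other peak, chr4:89026238-89026499, was intergenic, 85.8 kb upstream, and had the lowest fold enrichment of the 20, 3.43, with a −log10 q of 4.78. Neither peak was close to the start of the p16 transcript at 88928096, which was 24910 bp from the nearest summit.

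Ccnd1 encodes cyclin D1, which growth factors induce in cycling cells, and lies on the minus strand of chromosome 7 from 152115836 to 152125774. Its 2 peaks were both upstream and both below the median of all Pax7 peaks. The peak chr7:152129202-152129465 was 4.58-fold with a −log10 q of 7.70, with the summit 3.57 kb before the 5′ end. Here 72.6% of 201 bp were G or C, with 35 CpG dinucleotides, the highest values among the 20 peaks. The paired-box core was 37.5 bp from the summit, and TEAD sites were 2.5 and 6.5 bp from it. The second peak, chr7:152166841-152167085, was 4.88-fold, 41.2 kb upstream and intergenic, and held none of the motifs searched. No summit was found on the downstream side within 100 kb, and neither upstream peak reached 5-fold.

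Ccnd2, which encodes cyclin D2, lies on the minus strand of chromosome 6 from 127075797 to 127101066 and had no Pax7 peak within 100 kb. The first peak beyond that distance, chr6:126970283-126970818, was 105 kb past the 3′ end in an intron of Fgf6, a fibroblast growth factor gene expressed in the muscle lineage. It was 8.39-fold with a −log10 q of 36.8.

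Ccnd3 encodes cyclin D3, the D-type cyclin that stays high in differentiating myotubes, and lies on the plus strand of chromosome 17 from 47642000 to 47736632. The annotation gives it 2 transcript starts, at 47642000 and 47730416. Of its 5 peaks, 4 lay in the long first part of the gene between these starts, all in introns. The peak chr17:47648698-47648903, 6.76 kb from the upstream start, was 4.69-fold with a −log10 q of 7.96. Next in the direction of transcription, chr17:47679005-47679299 at 37.2 kb was 6.45-fold (−log10 q 15.6). Further in, chr17:47696587-47696824 at 54.7 kb was 5.76-fold (18.3) and chr17:47706171-47706378 at 64.3 kb was 5.55-fold (14.1), so that all 4 fell between the 36.4% and 71.6% points of the fold enrichment of all Pax7 peaks. The nearest summit to the downstream start was 24141 bp away. The strongest peak, chr17:47760067-47760311, was 8.33-fold with a −log10 q of 27.9 and lay beyond the gene in an untranslated region of Med20, a Mediator subunit gene, 23.6 kb past the Ccnd3 end. Its nearest coding start was that of Usp49, 7.44 kb away.

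None of the Ccnd3 peaks had the paired-box core or its variant within 50 bp of the summit. The 5.55-fold peak held 2 facing homeodomain half-sites, TAAT and ATTA, 17.5 bp from the summit. E-boxes, which bind MyoD and other basic helix-loop-helix factors, were at 0.5 bp (CAGCTG) in the strongest peak and at 13.5 bp (CAGCTG) and 14.5 bp (CACCTG) in the 6.45-fold peak. The other 2 peaks, of 4.69-fold and 5.76-fold, had none of the 7 motifs.

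Myc lies on the plus strand of chromosome 15 from 61816946 to 61821929, in a window with no other protein-coding gene. Its 2 peaks were far from the gene on either side. The peak chr15:61728119-61728445 was 5.56-fold with a −log10 q of 12.2, intergenic and 88.6 kb upstream. The peak chr15:61913989-61914498, the widest of the 20 at 510 bp, was 6.06-fold with a −log10 q of 14.2 and lay 97.2 kb downstream in an intron of the lincRNA Pvt1. Of all protein-coding genes, 69.1% had a summit closer to their 5′ end than Myc. Neither peak held a paired-box core, its variant or facing half-sites, and the upstream peak held CAGCTG 43.5 bp from its summit.

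**Figure D3:**
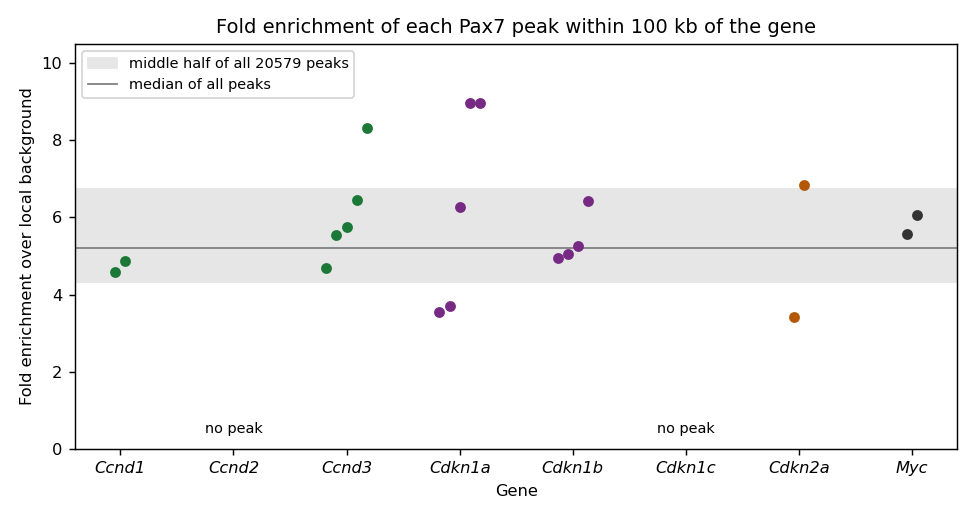
Fold enrichment over local background (y axis) of each Pax7 peak, 1 point per peak, by gene (x axis). The line is the median of all 20579 peaks, 5.22, and the band runs from the lower quartile, 4.32, to the upper quartile, 6.74. Points of Ccnd3, Cdkn1a and Cdkn2a rise above the band, and Ccnd2 and Cdkn1c have no peak.

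The 20 peaks were similar in strength to the Pax7 peaks of the whole genome. The lowest fold enrichment was 3.43, the median 5.56 and the highest 8.96, against a median of 5.22 over all 20579 peaks, and 12 of the 20 were above the latter. Those of 5-fold or more numbered 13 of 20 (65.0%, 95% Wilson interval 43.3% to 81.9%) and made up 54.9% of all peaks. None, 0 of 20, reached 10-fold (interval up to 16.1%), and 6.99% of all peaks did. A peak of at least 5-fold was present in the windows of 5 of the 8 genes (Ccnd3, Cdkn1a, Cdkn1b, Cdkn2a and Myc), and in those of 61.3% of protein-coding genes. These intervals cover counting error only, and peaks of 1 pooled list are not replicates. Median width was 245 bp, and 252 bp over all peaks.

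Of the 20 summits, 5 lay inside their gene (4 in Ccnd3 and 1 in Cdkn1a), and 12 were inside it or within 50 kb of it. Measured from the 5′ end alone, 4 were within 10 kb and 11 over 50 kb away, with a median of 54.7 kb. The window sets the range of these distances, and the same shares over the windows of all protein-coding genes are not given. For 9 of the 20 summits the nearest protein-coding start was that of the listed gene, and for 11 it was that of a neighbour. This was counted from the 5′ end of each gene model, and the split over all windows is not given either. The 11 include the Ccnd3 intron peaks of 5.76-fold and 5.55-fold, assigned to Bysl at 51.7 kb and 42.2 kb. These peaks were 33704 bp and 24141 bp from the downstream Ccnd3 start. By the annotation 9 were in introns, 9 between genes and 2 in exons. Those inside an annotated gene of any kind were thus 11 of 20 (55.0%), and 54.1% of all Pax7 peaks were. A summit within 1 kb of one of its own transcript starts was found for 2 of the 8 genes (Cdkn1a and Cdkn1b) and for 14.1% of protein-coding genes. A summit inside the gene was found for 2 of 8 (Ccnd3 and Cdkn1a) and for 22.3%. Ordered by the distance from the 5′ end to the nearest summit, the genes ran from Cdkn1b (61 bp) through Cdkn1a (2608 bp), Ccnd1 (3573 bp), Ccnd3 (6764 bp) and Cdkn2a (12449 bp) to Myc (88633 bp), Cdkn1c (122233 bp) and Ccnd2 (130517 bp). The median over protein-coding genes was 41.0 kb. Since there is 1 position per summit and no replicate, neighbours in this order have no spread to be compared with.

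Just inside the 100 kb limit were the 8.96-fold Stk38 peak of Cdkn1a at 98.7 kb, the 4.96-fold peak of Cdkn1b at 97.4 kb past the gene and the 6.06-fold Pvt1 peak of Myc at 92.2 kb past the gene. Just outside were a 2.88-fold peak 103 kb from Cdkn1a, the 8.39-fold Fgf6 peak 105 kb from Ccnd2 and a 7.81-fold peak 115 kb from Cdkn1b. When the reach was widened to 500 kb, a distance added after the values were seen, Ccnd2 had 7 peaks, Cdkn1c 8, Myc 10, Cdkn2a 12, Ccnd3 13, Cdkn1a 14 and Cdkn1b 15, and the median over protein-coding genes was 10. Ccnd1 had 4, and 17.4% of genes had fewer. The first peak upstream of Ccnd1 beyond 100 kb was 344 kb away, at 3.84-fold.

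**Figure D4:**
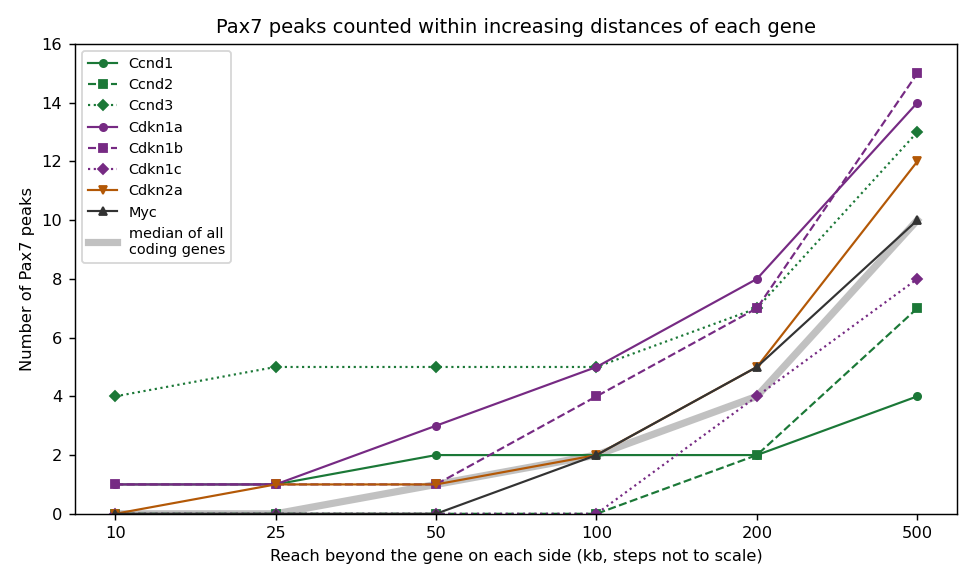
Number of Pax7 peaks (y axis) within a reach of 10, 25, 50, 100, 200 and 500 kb beyond each gene (x axis, steps not to scale). The thick grey line is the median of all protein-coding genes. Ccnd3 starts with 4 peaks at 10 kb, Ccnd2 and Cdkn1c leave 0 only at 200 kb, and Ccnd1 stays at 2 from 50 to 200 kb.

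The paired-box core was present within 50 bp of 6 of the 20 summits (30.0%, 95% Wilson interval 14.5% to 51.9%) and of 11.1% of all Pax7 summits. In windows of the same width 500 bp to either side it was in 1 of 40 around the 20 peaks and in 1.28% around all peaks. The 6 peaks were those of Cdkn1a (3), Cdkn1b (1), Cdkn2a (1) and Ccnd1 (1), and those of Ccnd3 and Myc had none. The variant GTCATG was at 2 of the 20 (10.0%) and at 13.7% of all summits, and the half-sites TAAT and ATTA facing each other with 2 or 3 bases between were at 1 (5.00%) and at 1.82%. CAGCTG was at 5 (25.0%) and at 15.7%, and CACCTG at 3 (15.0%) and at 4.35%. In the windows 500 bp away, CAGCTG was in 2 of 40 around the 20 peaks (5.00%) and in 4.56% around all. CACCTG was in 7 of these 40 (17.5%), no fewer than at the summits themselves, and in 6.50% around all. AP-1 (TGANTCA) was at 1 (5.00%) and at 6.82%, and TEAD (GGAATG) at 2 (10.0%) and at 11.0%. All were searched on both strands, and an AP-1 site and a paired-box core can share the bases GTCA. A match describes the sequence and does not show what was bound. G or C made up a median of 50.5% of the 201 bp around the 20 summits and 45.8% around all. The highest values were those of Ccnd1 (72.6%), the Cdkn1b promoter (68.2%), the Cdkn2b exon (63.7%) and the Cdkn1a promoter (61.7%), and the remaining peaks ranged from 40.3% to 56.7%.

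**Figure D5:**
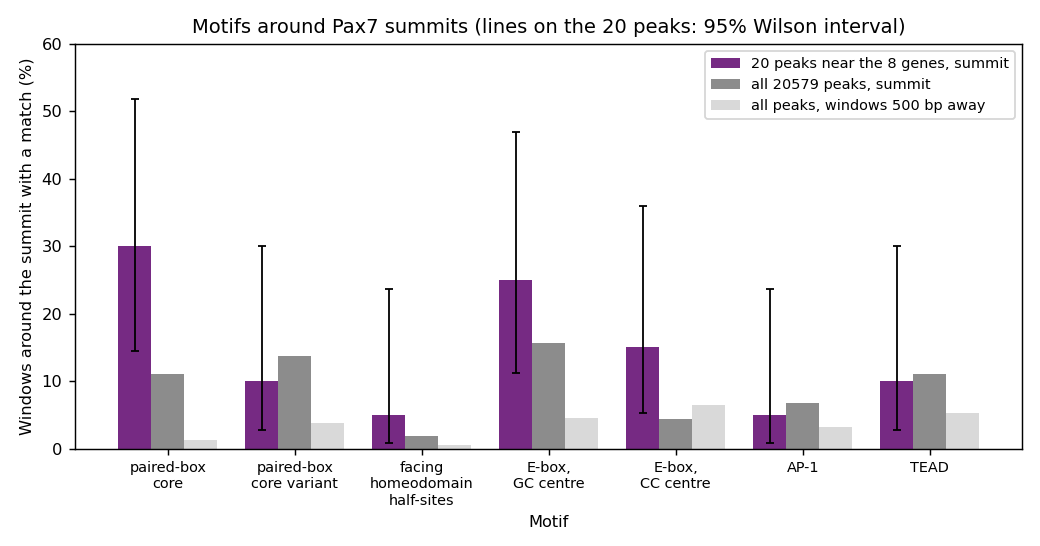
Share of 101 bp windows with a match to each motif (y axis, %), for the summits of the 20 peaks, of all 20579 peaks and for windows 500 bp away from all summits. Error bars are 95% Wilson intervals that cover counting error only. The paired-box core is at 30.0% of the 20 summits and 11.1% of all summits. CACCTG (E-box, CC centre) is at 15.0% and 4.35%, and was also in 17.5% of the windows 500 bp from the 20 peaks. The core variant, AP-1 and TEAD are at a lower share of the 20 summits than of all. The intervals treat the peaks as independent and make no allowance for the 7 motifs searched, so they are not a test.

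Other genes of the G1 transition and of the Myc network were counted for comparison in windows of the same rule. Of the 34 genes listed, 31 had at least 1 Pax7 peak, against 75.2% of protein-coding genes, and Cdkn2c, E2f5 and Mycl1 had none. At least 5-fold was reached in the windows of 26 of the 34 and of 61.3% of protein-coding genes, and the medians were 3.5 and 2 peaks per gene. E2f7, which encodes a repressor E2F, had the most with 7. Cdk6 (a kinase partner of D-type cyclins), Cdkn2d (an Ink4 inhibitor), E2f2, E2f3, Mnt (a Max partner that opposes Myc) and Skp2 (which targets p27 for degradation) had 6 each. Of these 7 genes, Skp2 had the strongest peak (15.6-fold), followed by E2f2 (13.2-fold) and E2f7 (12.1-fold). A summit within 1 kb of a transcript start was found for 7 of the 34 and for 14.1% of protein-coding genes. The 7 were Mnt, Mycn, Cdc25a, E2f7, E2f8, Ccne2 and Mxd4. Cdkn2b shared both of its peaks with Cdkn2a.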

How the data were processed

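The authors aligned the single-end reads with bowtie2 (mm9), discarded those without a unique position as well as PCR duplicates (Picard), merged the 2 ChIP and the 2 input libraries and called peaks with MACS2. The deposited list has no header. Fold enrichment, as deposited, is the ratio of ChIP signal to the local background at the summit, and the deposited list also gives −log10 of the q-value, which was above 2 for all 20579 peaks. It holds no read counts, so the depth behind a peak is unknown from it.

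Coordinates are 1-based. Summits were placed on NCBIM37 and its GENCODE annotation, and a gene's 5′ end is that of its gene model. Motif matches on either strand counted if they lay within 50 bp of a summit. Genome-wide occurrences of 20-base words were counted after the sequences had been seen. Counting and motif search were tested on simulated data. No test was run, since 1 pooled list has no replicates. The genes, lists and motifs were chosen with earlier results of these data known. All 8 genes and every peak near them are named. From the list of 34 genes, the 5 with the most peaks were to be named, and ties made these 7. Genes without any peak, those with a summit within 1 kb of a transcript start and Cdkn2b were named after their values were seen. Alternatives were a fold enrichment or −log10 q of at least 5, merging within 500 bp, any overlap of at least 1 bp, other reaches, windows around the 5′ end alone, and motif windows of 25 and 100 bp. The genome was indexed with samtools 1.23.1 and read with pysam 0.24.0. Tables were handled with pandas 2.3.3 and numpy 2.4.6 in Python 3.11.15, intervals came from scipy 1.17.1, and figures from matplotlib 3.10.9.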

Additional observations from a re-analysis of the deposited data

How the results depend on the processing

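The total of 20 peaks was 13 with a fold enrichment of at least 5, 12 with a reach of 50 kb, 40 with 200 kb and 83 with 500 kb, the last chosen after seeing the data. Fewer peaks qualify, or the window is longer, by construction. Of the other 28 combinations of a summary value and an alternative, none moved beyond 1.5 times, or for shares beyond the 95% Wilson interval. The genes with a peak numbered 5 to 8, and the median fold enrichment was 5.16 to 5.66. With at least 5-fold these genes numbered 5, beside 61.3% of all protein-coding genes. With reaches of 50, 200 and 500 kb they numbered 5, 8 and 8, beside 62.1%, 84.6% and 92.7%. The paired-box core was at 20.0% of summits within 25 bp, and the share over all peaks at that width is not given. Of 80 combinations for single genes, 24 moved. With at least 5-fold, Ccnd1 had 0 peaks, Cdkn1a 3 and Cdkn2a 1, and the share of genes with fewer peaks than Myc was 63.5%. Within 50 kb, Myc had 0, Cdkn1b and Cdkn2a 1 each and Cdkn1a 3. With −log10 q of at least 5, Cdkn2a had 1. No paired analysis was possible because the list was called on merged libraries, and for the same reason no replicate could be left out.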
